A study of Mus musculus with 6 samples.

Results

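The receptors that use the common gamma chain, together with the cytokine gene Il15, were followed in 2 populations of mouse CD8 T cells. The 9 genes were chosen by name as the receptor chains for IL-2, IL-4, IL-7, IL-9, IL-15 and IL-21 plus Il15. All 9 were found among the 23284 genes counted, and all 9 were among the 12951 genes that passed the filter on low counts. RNA sequencing covered 3 libraries of NKG2D+ cells and 3 libraries of NKG2D- cells, sorted from lymph nodes of C3H/HeJ mice, an inbred strain. Cells of both populations were sorted as CD3+CD8+CD44+CXCR3+, which is the surface of antigen-experienced CD8 T cells. What set them apart was surface NKG2D, the product of Klrk1 and a receptor that activates killer lymphocytes. The sample labels give no treatment, age or disease state. The cells came from 3 separate mice, and libraries with the same replicate number were taken to share a mouse.

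Receptors of this family pair a cytokine-specific chain with the common gamma chain, which is encoded by Il2rg. The receptors for IL-2 and IL-15 also share a beta chain, encoded by Il2rb, and add a private alpha chain, encoded by Il2ra or Il15ra. Binding of the cytokine activates the kinases JAK1 and JAK3, which phosphorylate STAT proteins. In CD8 T cells IL-7 and IL-15 are known for the survival and turnover of memory cells, and IL-2 for effector expansion. IL-15 is presented to T cells by neighbouring cells that carry it on the IL-15 receptor alpha chain.

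Stretches upstream of 4 member genes are shown because they belong to the genes on which the results turn. Il4ra is the 1 member that passed the test with population as the only term, and Il21r is its nearest protein-coding neighbour on chromosome 7. Among the chains of the IL-2 receptor Il2ra varied most between NKG2D+ libraries, and Il2rg was steady in both populations. The sequences are from RefSeq, build GRCm38.p6, which is the C57BL/6J genome and not that of the sequenced strain, and they run 5' to 3' along the gene's strand. Each ends before the first annotated base of its gene. Capitals mark a motif match.
Il4ra, chr7:125552021-125552119, plus strand: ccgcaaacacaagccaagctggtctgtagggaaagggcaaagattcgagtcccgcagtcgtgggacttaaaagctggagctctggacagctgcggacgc
Il21r, chr7:125603179-125603251, plus strand: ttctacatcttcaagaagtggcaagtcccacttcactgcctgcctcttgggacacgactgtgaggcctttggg
Il2ra, chr2:11642542-11642791, plus strand: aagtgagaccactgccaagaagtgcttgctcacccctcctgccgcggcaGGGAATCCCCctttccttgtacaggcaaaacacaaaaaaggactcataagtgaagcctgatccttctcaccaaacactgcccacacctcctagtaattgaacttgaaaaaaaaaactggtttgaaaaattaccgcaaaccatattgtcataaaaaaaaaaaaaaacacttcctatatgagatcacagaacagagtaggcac
Il2rg, chrX:101268256-101268505, minus strand: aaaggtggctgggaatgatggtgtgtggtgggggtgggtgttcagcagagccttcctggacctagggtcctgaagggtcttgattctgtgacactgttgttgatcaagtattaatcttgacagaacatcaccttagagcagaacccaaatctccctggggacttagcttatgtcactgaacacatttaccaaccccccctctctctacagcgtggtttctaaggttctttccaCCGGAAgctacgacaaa

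Both strands of the 250 bases before each listed start were searched for STAT (TTCNNNGAA), ETS (CCGGAA), NF-kappaB (by name), FOXO (GTAAACA) and octamer (ATGCAAAT) letters. Capitals in the Il2ra stretch are the match to the NF-kappaB pattern, which 0.944% of 32851 promoter windows of that length hold. Those in the Il2rg stretch are the ETS letters, held by 12% of windows. The printed stretches of Il4ra and Il21r hold no match, and their full windows hold the octamer (1.60% of windows) and the FOXO letters (3.17% of windows). The full window of Il7r holds the STAT letters (7.02% of windows) and the first of the 2 windows of Il15ra the ETS letters. The second window of Il15ra and the window of Il9r hold no match. Il2rb and Il15 are named without a sequence. A match describes letters and is not evidence of binding.

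Gene counts came to 63232698 to 89184611 per NKG2D+ library and 41168816 to 67315805 per NKG2D- library. Klrk1, checked as the sort marker, ranged over 312 to 409 CPM (a gene's counts scaled to the size of its library) in NKG2D+ libraries, against 34.5 to 37.1 CPM where NKG2D was absent from the surface. Of 10 listed B-cell markers, 9 had every NKG2D+ library above every NKG2D- library, against 15.1% of tested genes. The exception was Cd79b, at 30.98 CPM in NKG2D+ library 2 and 31.14 CPM in NKG2D- library 2. The summed level of all 10 listed B-cell markers was 389 to 597 CPM in NKG2D+ and 109 to 280 CPM in NKG2D- libraries. Cd22 was the largest part of it, at 147, 200 and 207 CPM in NKG2D+ libraries 1, 2 and 3. In NKG2D- libraries 1, 2 and 3 Cd22 stood at 58.0, 113 and 115 CPM. Its NKG2D+ value was lowest in library 1, where the sum was highest. Of the 10, 9 had an unadjusted p under 0.05 and 0 passed by edgeR, against 21.1% and 2.02% of tested genes. The summed level of 4 MHC class II genes was 433 to 1146 CPM against 133 to 388 CPM. The part of these cells in the members' values was not tested. NKG2D+ library 1 had the highest value of both sums and is given separately wherever it decides a result.

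Per length of transcript, the shared signalling chains had the highest means of the members and Il15 the lowest. Levels were divided by the exon length of each gene in GENCODE M21 transcripts matched to RefSeq, since CPM alone cannot rank genes of unequal length. Il2rg came first at 428 ± 13.7 CPM per kb in NKG2D+ and 417 ± 16.3 CPM per kb in NKG2D- cells (mean ± SD, n = 3 each, as in all such values). Il2rb followed at 324 ± 4.65 against 324 ± 58.9 CPM per kb, and Il7r at 285 ± 73.3 against 214 ± 39.6 CPM per kb. Il21r and Il4ra lay lower, at 92.2 ± 7.52 against 115 ± 13.8 CPM per kb for Il21r and 51.5 ± 3.59 against 76.4 ± 0.708 CPM per kb for Il4ra. The private alpha chains Il15ra and Il2ra were scarcer still. Il15ra stood at 9.11 ± 0.807 against 8.61 ± 0.69 CPM per kb, and Il2ra at 6.25 ± 3.45 against 2.94 ± 0.367 CPM per kb. Il9r stood at 4.02 ± 3.37 against 1.02 ± 0.259 CPM per kb and Il15 at 0.555 ± 0.345 against 0.165 ± 0.075 CPM per kb.

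The order of the 9 means was the same in NKG2D+ and in NKG2D- cells. Within NKG2D- cells no member's range touched that of the next in order. Within NKG2D+ cells the ranges overlapped for Il2rb and Il7r, for Il15ra and Il2ra, and for Il2ra and Il9r. Within each NKG2D+ library, however, Il2ra lay above Il9r, at 8.95, 2.36 and 7.44 against 7.88, 1.72 and 2.45 CPM per kb. The other overlapping pairs were reversed in NKG2D+ library 1 alone. There Il7r lay above Il2rb, at 369 against 324 CPM per kb, and Il2ra above Il15ra, at 8.95 against 8.18 CPM per kb. The lengths come from another build than the counts (mm9), which could shift the ranks of genes close to each other.

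**Figure D1:**
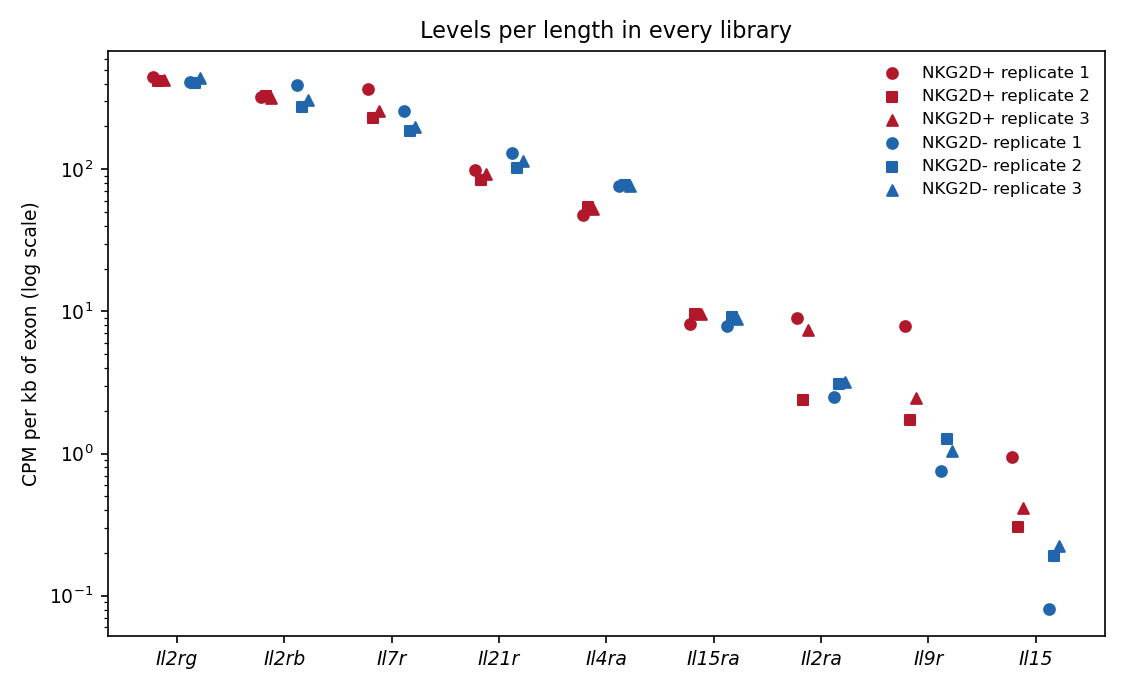
Levels of the 9 genes as CPM per kb of exon (log axis), 1 point per library, NKG2D+ in red left of NKG2D- in blue, with the marker shape giving the replicate number. Il2rg lies highest at 405 to 443 CPM per kb over all 6 libraries and Il15 lowest at 0.0806 to 0.948 CPM per kb.

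The comparison of the populations asked which receptors of the family go with NKG2D on antigen-experienced CD8 T cells. In NKG2D+ cells Il4ra, the alpha chain of the IL-4 receptor, fell to 0.674 times its NKG2D- level, and no other member passed the test at an adjusted p under 0.05. With the replicate number as a block, which pairs the libraries of a mouse, 0 members passed and the adjusted p of Il4ra was 0.0554. Without the block the call of Il4ra was 1 of 9 members, where 2.02% of all tested genes passed in either direction and 0.363% passed as lower. Of the 9, 0 passed as higher, against 1.65% of tested genes. The ranges of the populations did not overlap for 4 of the 9, against 29.1% of tested genes. Il4ra and Il21r were the lower of these 4 in NKG2D+ cells (2 of 9, against 14.1% of tested genes), and Il9r and Il15 the higher (2 of 9, against 15.1%). An unadjusted p under 0.05 was reached by 5 of 9 members, against 21.1% of tested genes. The median log2 fold change of the 9 was 0.08, and that of all tested genes -0.01.

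**Figure D2:**
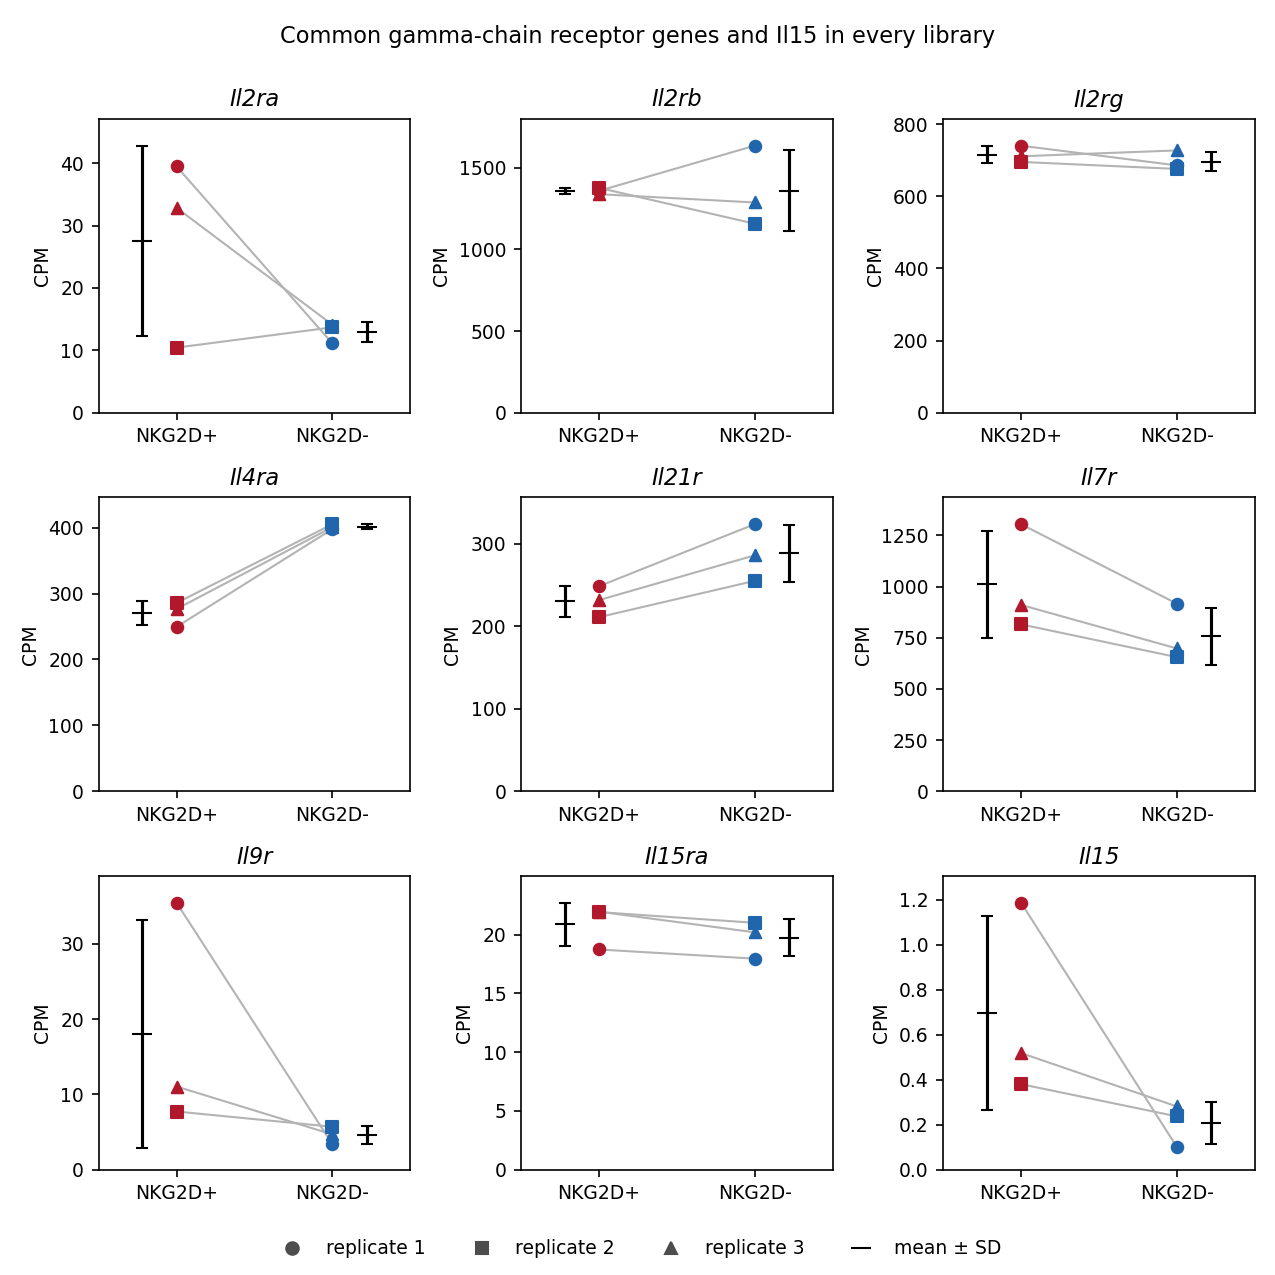
CPM of each gene in every library on linear axes from 0, NKG2D+ left of NKG2D-, with grey lines joining libraries of the same replicate number and black bars giving the mean ± SD of 3 libraries. The 3 NKG2D+ libraries lie below the 3 NKG2D- libraries for Il4ra and Il21r, and NKG2D+ replicate 1 stands high for Il9r and Il15.

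Il4ra stood at 249.5, 286 and 277 CPM in NKG2D+ libraries 1, 2 and 3 and at 398, 405 and 401 CPM in NKG2D- libraries 1, 2 and 3. All NKG2D+ values were below all NKG2D- values, and the coefficient of variation was 6.96% in NKG2D+ and 0.926% in NKG2D- libraries. The log2 fold change was -0.57 (SE 0.07, 95% interval -0.74 to -0.40, adjusted p = 0.022 by edgeR's quasi-likelihood test). The within-mouse differences were -0.67, -0.50 and -0.54 on the log2 scale, and the two-sided exact permutation p was 0.1, the lowest that 3 against 3 allows. With the replicate number as a block the log2 fold change was -0.57 (SE 0.06) and the adjusted p 0.0554, so the call was lost while the size stayed. Leaving out single libraries gave log2 fold changes of -0.61 to -0.51 with adjusted p-values from 0.00791 without NKG2D+ library 1 and 0.00802 without NKG2D+ library 2 to 0.105 without NKG2D+ library 3, and of 0.12, 0.117 and 0.154 without NKG2D- libraries 1, 2 and 3. A gene on the opposite strand, Gm44876, overlaps exons of Il4ra in GENCODE M21, and without a known strand setting its reads cannot be told apart. Such bulk values do not separate fewer cells with the transcript from less transcript per cell.

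Il21r encodes the receptor chain for IL-21, a cytokine of follicular helper cells that sustains CD8 T cells. It stood at 249, 211 and 232 CPM in NKG2D+ libraries 1, 2 and 3, while the NKG2D- cells read 324, 255 and 286 CPM in libraries 1, 2 and 3. The NKG2D+ library was the lower in all 3 mice, and the ranges did not overlap although the highest NKG2D+ and the lowest NKG2D- value were close. A log2 fold change of -0.32 (SE 0.11, 95% interval -0.57 to -0.07) did not pass (adjusted p = 0.152), nor did it with the block (log2 fold change -0.32, SE 0.05, adjusted p = 0.0882). In the RefSeq gene table Il21r is the next protein-coding gene after Il4ra, 23.8 kb away. B cells also carry both receptors, and the part of B-cell transcripts in either value was not tested.

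The IL-2 and IL-15 receptors share their signalling chains, and neither chain was called. Il2rb stood at 1359, 1378 and 1339 CPM in NKG2D+ libraries 1, 2 and 3 and at 1636, 1158 and 1288 CPM in NKG2D- libraries 1, 2 and 3. The coefficient of variation was 1.43% in NKG2D+ against 18.2% in NKG2D- libraries, and the NKG2D+ values lay inside the NKG2D- range. With a log2 fold change of -0.002 (SE 0.13, 95% interval -0.31 to 0.31, adjusted p = 0.995), Il2rb did not pass, and its sign turned with other settings. Il2rg stood at 740, 695 and 711 CPM in NKG2D+ and 685, 676 and 727 CPM in NKG2D- libraries 1, 2 and 3. Its log2 fold change was 0.04 (95% interval -0.13 to 0.20, adjusted p = 0.80), the narrowest interval of the 9. In GENCODE M21 a gene named Gm20489 on the same strand shares exon bases with Il2rg, and reads of the overlap may belong to either.

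The balance of these chains was also read within each library, where scaling drops out. Il2rb had 1.84, 1.98 and 1.88 times the counts of Il2rg in NKG2D+ libraries 1, 2 and 3 and 2.39, 1.71 and 1.77 times in NKG2D- libraries 1, 2 and 3. The mean log2 ratio was 0.93 ± 0.06 against 0.95 ± 0.26 (two-sided exact permutation p = 1, adjusted over 2 ratios p = 1). Against Il7r, Il2rb had 1.04, 1.69 and 1.47 times the counts in NKG2D+ and 1.78, 1.77 and 1.85 times in NKG2D- libraries 1, 2 and 3. All NKG2D+ ratios were below all NKG2D- ratios, with NKG2D+ library 1 the lowest. The log2 ratio was 0.46 ± 0.36 against 0.85 ± 0.03, a difference of -0.39 (exact permutation p = 0.1, the lowest possible, p = 0.2 adjusted over the 2 ratios), and of -0.19 without NKG2D+ library 1.

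The private alpha chain of the IL-2 receptor varied widely between NKG2D+ libraries (coefficient of variation 55.2%) and less between NKG2D- libraries (12.5%). Il2ra, which encodes CD25 and makes the IL-2 receptor bind with high affinity, stood at 39.5, 10.4 and 32.8 CPM in NKG2D+ libraries 1, 2 and 3, while the NKG2D- cells read 11.1, 13.7 and 14.1 CPM in libraries 1, 2 and 3. NKG2D+ libraries 1 and 3 were above every NKG2D- library and NKG2D+ library 2 was below every one. The log2 fold change was 1.09 (SE 0.45, 95% interval 0.03 to 2.14, adjusted p = 0.227). Without NKG2D+ library 2 it was 1.48 (adjusted p = 0.00285), without NKG2D+ library 1 0.74 (adjusted p = 0.535). It was 0.64 without both libraries of mouse 1 (adjusted p = 0.686) and 1.53 without both of mouse 2 (adjusted p = 0.018). Il2ra is also known from regulatory T cells, whose transcription factor gene Foxp3 stood at 7.27, 2.45 and 4.94 CPM in NKG2D+ and 20.8, 16.2 and 14.4 CPM in NKG2D- libraries 1, 2 and 3 (adjusted p = 0.0687). Foxp3 was thus lower in every NKG2D+ than in every NKG2D- library, and within NKG2D+ its order over the mice was that of Il2ra. The other 3 genes of the CD4 and regulatory T-cell list had the same order within NKG2D+ but were not lower in every NKG2D+ library. Zbtb7b, a factor of CD4 T cells, was higher in every NKG2D+ library (log2 fold change 0.87, adjusted p = 0.087), while the ranges overlapped for Cd4 (-0.07 on the log2 scale, adjusted p = 0.932) and Ikzf2 (-1.25, adjusted p = 0.26). Their part in the values of Il2ra was not tested.

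Il15ra, the alpha chain that binds and presents IL-15, stood at 18.7, 21.92 and 21.96 CPM in NKG2D+ libraries 1, 2 and 3 and 18.0, 21.0 and 20.2 CPM in NKG2D- libraries 1, 2 and 3. It was slightly higher in the NKG2D+ library of all 3 mice, and the ranges overlapped. Il15ra had a log2 fold change of 0.08 (SE 0.11, 95% interval -0.17 to 0.33, adjusted p = 0.713). Il2ra and Il15ra lie next to each other on chromosome 2, 12 kb apart, as Il4ra and Il21r do on chromosome 7. The coefficient of variation over the NKG2D+ libraries was 55.2% for Il2ra and 8.85% for Il15ra.

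Il7r, the alpha chain of the IL-7 receptor and a marker of long-lived memory cells, stood at 1305, 815 and 911 CPM in NKG2D+ libraries 1, 2 and 3 and at 917, 655 and 698 CPM in NKG2D- libraries 1, 2 and 3. In each mouse the NKG2D+ library was the higher, by 0.51, 0.32 and 0.38 on the log2 scale, while the ranges overlapped, with mouse 1 high in both populations. For Il7r the log2 fold change was 0.42 (SE 0.20, 95% interval -0.07 to 0.90, adjusted p = 0.305). With the block it was 0.40 with an SE of 0.07 (95% interval 0.21 to 0.60), and the adjusted p was 0.0978. Without NKG2D+ library 1 the log2 fold change was 0.19 (adjusted p = 0.551), and 0.35 without both libraries of mouse 1 (adjusted p = 0.11).

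Il9r encodes the receptor chain for IL-9, known best from mast cells and helper T cells. It stood at 35.4, 7.72 and 11.04 CPM in NKG2D+ libraries 1, 2 and 3, while the NKG2D- cells read 3.37, 5.70 and 4.68 CPM in libraries 1, 2 and 3. The ranges did not overlap, and NKG2D+ library 1 stood far above the others. The log2 fold change was 1.97 (SE 0.58, 95% interval 0.59 to 3.35, adjusted p = 0.127). Without NKG2D+ library 1 it was 1.03 (adjusted p = 0.0615), and without NKG2D+ library 2 it was 2.33 (adjusted p = 0.0451). Leaving out both libraries of mouse 1 gave 0.85 (adjusted p = 0.115). By DESeq2 Il9r passed, at 1.98 on the log2 scale with an adjusted p of 0.0424. The mast-cell and basophil genes Fcer1a and Ms4a2 had 0 counts in every library, and the summed level of the 5 listed markers was 0.198 to 0.726 CPM in NKG2D+ and 0.389 to 0.452 CPM in NKG2D- libraries. The B-cell marker sum was 597, 389 and 433 CPM in NKG2D+ and 109, 280 and 236.5 CPM in NKG2D- libraries 1, 2 and 3. This sum ranked the libraries of both populations in the same order as Il9r. Cd22, the largest part of the sum, did not, and was lowest of the NKG2D+ libraries in library 1. The part of other cells in the level of Il9r was not tested.

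Il15 was the scarcest member. It had 78, 34 and 40 counts in NKG2D+ libraries 1, 2 and 3 and 4, 14 and 18 counts in NKG2D- libraries 1, 2 and 3. In CPM these were 1.19, 0.38 and 0.518 against 0.101, 0.237 and 0.281. All NKG2D+ values were above all NKG2D- values, and both extremes came from mouse 1. Its log2 fold change of 1.68 (SE 0.56, 95% interval 0.36 to 3.00) did not pass (adjusted p = 0.155). Without NKG2D+ library 1 it was 1.06 (adjusted p = 0.254) and without both libraries of mouse 1 0.78 (adjusted p = 0.337). Dendritic cells and macrophages are known sources of IL-15, and the sort was for CD3+CD8+ cells. In the files 12 of their 13 listed markers were found. Their summed level was 32.5, 15.2 and 23.3 CPM in NKG2D+ and 9.75, 11.2 and 11.1 CPM in NKG2D- libraries 1, 2 and 3, highest in NKG2D+ library 1 like Il15. Xcr1 and Lyz2 made up much of it, at 14.6 and 11.65 CPM in NKG2D+ library 1. Of the 9 tested markers 5 had a positive and 4 a negative log2 fold change, with 0 of the 9 called by edgeR. An unadjusted p under 0.05 was reached by 6 of the 9, against 21.1% of tested genes. Xcr1 (2.05), Itgax (1.98), Csf1r (1.125) and Lyz2 (1.12) were higher in every NKG2D+ than in every NKG2D- library. The dendritic-cell genes Clec9a (-1.55), Siglech (-1.21) and Cd209a (-0.89) were lower in the NKG2D+ library of all 3 mice. Of these, Clec9a and Cd209a were at most 0.372 and 0.302 CPM in any library. The macrophage genes Cd14 and Fcgr1 were at most 0.156 and 0.0676 CPM in any library, and each had 0 counts in NKG2D- library 1. Their part in the level of Il15 was not tested.

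**Figure D3:**
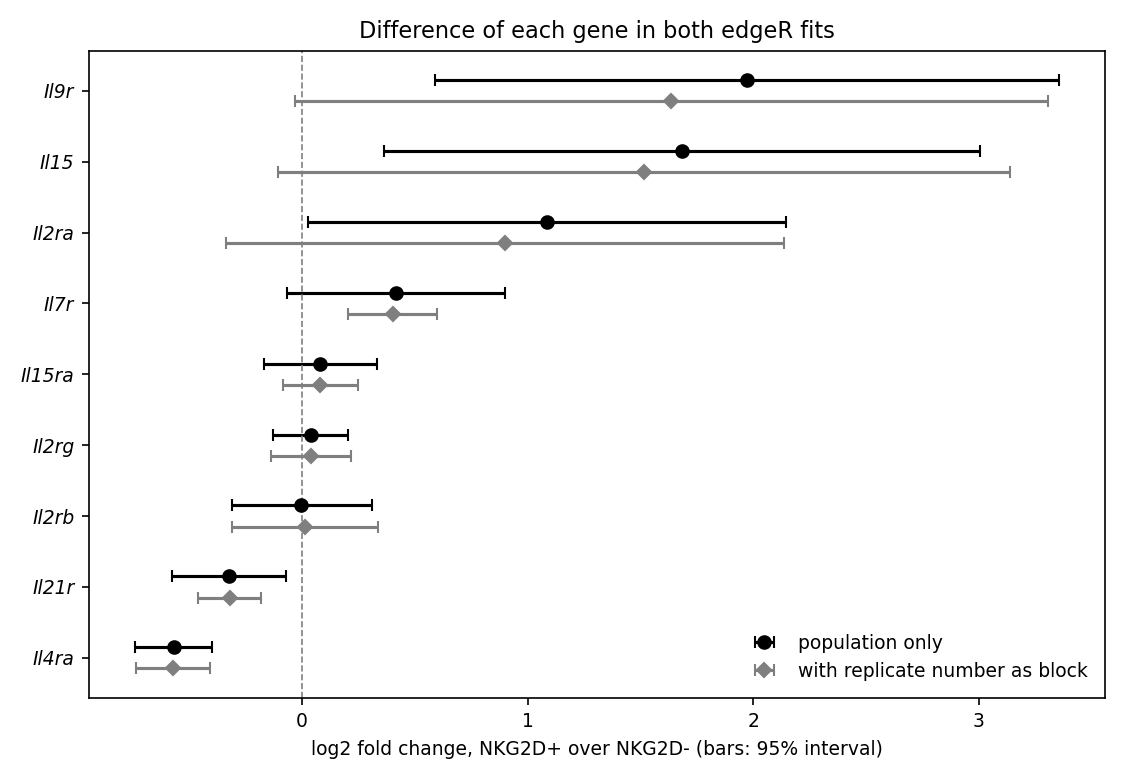
Log2 fold change of each gene, NKG2D+ over NKG2D-, with 95% intervals, from edgeR with population as the only term (black circles) and with the replicate number as a block (grey diamonds). The block narrows the intervals of Il7r (0.21 to 0.60) and Il21r (-0.46 to -0.18) and widens those of Il2ra, Il9r and Il15, which then reach below 0.

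NKG2D+ library 1 was the highest of all 6 libraries for 5 of the 9 members, Il2ra, Il2rg, Il7r, Il9r and Il15, against 30.2% of tested genes. In all 3 mice 4 members were higher in the NKG2D+ library, Il7r, Il9r, Il15 and Il15ra (25.9% of tested genes), and 2 were lower, Il4ra and Il21r (29.1% of tested genes). Il2ra went both ways, with within-mouse differences of 1.83, -0.39 and 1.22 on the log2 scale.

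Transcripts of the listed cytokines were scarce. Il13 and Tslp encode cytokines that are not among those by which the members were chosen. Of 9 ligand and extra receptor chain genes, 5 were tested and 0 passed by edgeR, against 2.02% of tested genes. An unadjusted p under 0.05 was reached by 2 of the 5, against 21.1% of tested genes. The gene with the smallest p was Il13, with 56, 23 and 15 counts in NKG2D+ and 0, 0 and 3 counts in NKG2D- libraries 1, 2 and 3 (adjusted p = 0.0866). Il2, the growth factor bound by the receptor of Il2ra, Il2rb and Il2rg, stood at 3.79, 0.581 and 0.842 CPM in NKG2D+ and 0.201, 0.237 and 0.14 CPM in NKG2D- libraries 1, 2 and 3 (adjusted p = 0.0957). Il2 was chosen for description after its values were seen. In the edgeR fit without NKG2D+ library 2 alone, Il2 and Il13 passed with adjusted p-values of 0.0261 and 0.0445, but not without both libraries of mouse 2 (0.081 and 0.13). Il2 also passed when NKG2D+ library 1 alone was left out (adjusted p = 0.0406), but not without both libraries of mouse 1 (adjusted p = 0.092). DESeq2 called Il2 and Il13, with adjusted p-values of 0.000432 and 0.00498, and limma-voom called 0 of the 5. Over all genes DESeq2 called 1443 of 23284 and limma-voom 83 of 12951. Il9 and Tslp had 0 counts in every library, which allows up to 0.0335 to 0.0756 CPM, and Il4 had at most 1 count. Crlf2, which pairs with the IL-7 receptor alpha chain to bind TSLP, stood at 30.2 to 37.5 CPM in NKG2D+ and 32.0 to 37.1 CPM in NKG2D- libraries.

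None of the 13 signalling genes passed by edgeR, and 0 had an unadjusted p under 0.05, against 2.02% and 21.1% of tested genes. DESeq2 and limma-voom also called 0 of these genes, against 1443 of 23284 and 83 of 12951 genes. Their median log2 fold change was 0.05. Stat5b, which relays IL-2, IL-7 and IL-15 signals, had the smallest p, at 146, 146 and 146 CPM in NKG2D+ and 158, 165 and 157 CPM in NKG2D- libraries 1, 2 and 3 (log2 fold change -0.13, SE 0.06, adjusted p = 0.255). Stat6, the STAT of the IL-4 receptor, had a log2 fold change of 0.10 (SE 0.11, adjusted p = 0.67), and was chosen after its value was seen.

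Of 12 feedback and target genes 1 rose and 0 fell by edgeR, against 1.65% and 0.363% of tested genes. An unadjusted p under 0.05 was reached by 4 of the 12, against 21.1% of tested genes. The median log2 fold change was 0.03. The gene that rose was Socs2, an inhibitor of cytokine signalling that STAT5 induces, at 29.3, 10.98 and 21.9 CPM in NKG2D+ and 4.46, 4.58 and 3.96 CPM in NKG2D- libraries 1, 2 and 3. Its log2 fold change was 2.26 (SE 0.34, adjusted p = 0.0339, 0.0806 with the block and 0.118 by limma-voom). Its adjusted p was 0.114 without NKG2D+ library 3 and 0.17, 0.14 and 0.2 without NKG2D- libraries 1, 2 and 3. Cish, the STAT5 target that encodes the inhibitor CIS, did not pass at 289, 45.4 and 124 CPM in NKG2D+ and 21.8, 10.02 and 11.9 CPM in NKG2D- libraries 1, 2 and 3 (log2 fold change 3.40, SE 0.69, adjusted p = 0.066, and 0.0558 with the block). Cish passed without NKG2D+ library 2 (adjusted p = 0.0133), without both libraries of mouse 2 (adjusted p = 0.0295) and by DESeq2 (adjusted p = 0.000329). DESeq2 called 2 of the 12 as higher and 2 as lower, where it called 1028 of 23284 genes as higher and 415 as lower. Limma-voom and the block called 0 of the 12, where they called 83 and 68 of 12951 genes. Socs3, another inhibitor of cytokine signalling, did not pass at 44.7, 77.3 and 57.4 CPM in NKG2D+ and 119.8, 105.5 and 90.6 CPM in NKG2D- libraries 1, 2 and 3 (log2 fold change -0.82, SE 0.20, adjusted p = 0.0917). All its NKG2D+ values were below all NKG2D- values, and it passed without NKG2D+ library 2 (adjusted p = 0.0119). Myc, a growth regulator, had a log2 fold change of -0.62 (SE 0.22, adjusted p = 0.174). Cish, Socs3 and Myc were chosen after their values were seen. Socs2, Cish and Il2 followed Il2ra in the order of the NKG2D+ libraries, with mouse 1 highest, mouse 3 next and mouse 2 lowest, and 3 libraries allow no test of that order. The sums of the B-cell, MHC class II and dendritic-cell and macrophage markers had the same order in NKG2D+ libraries, and their part in it was not tested. Cd22, the largest part of the B-cell sum, did not have that order and was lowest in mouse 1. Unlike Il2ra, the NKG2D+ library 2 was above the NKG2D- libraries for Socs2, Cish and Il2.

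**Figure D4:**
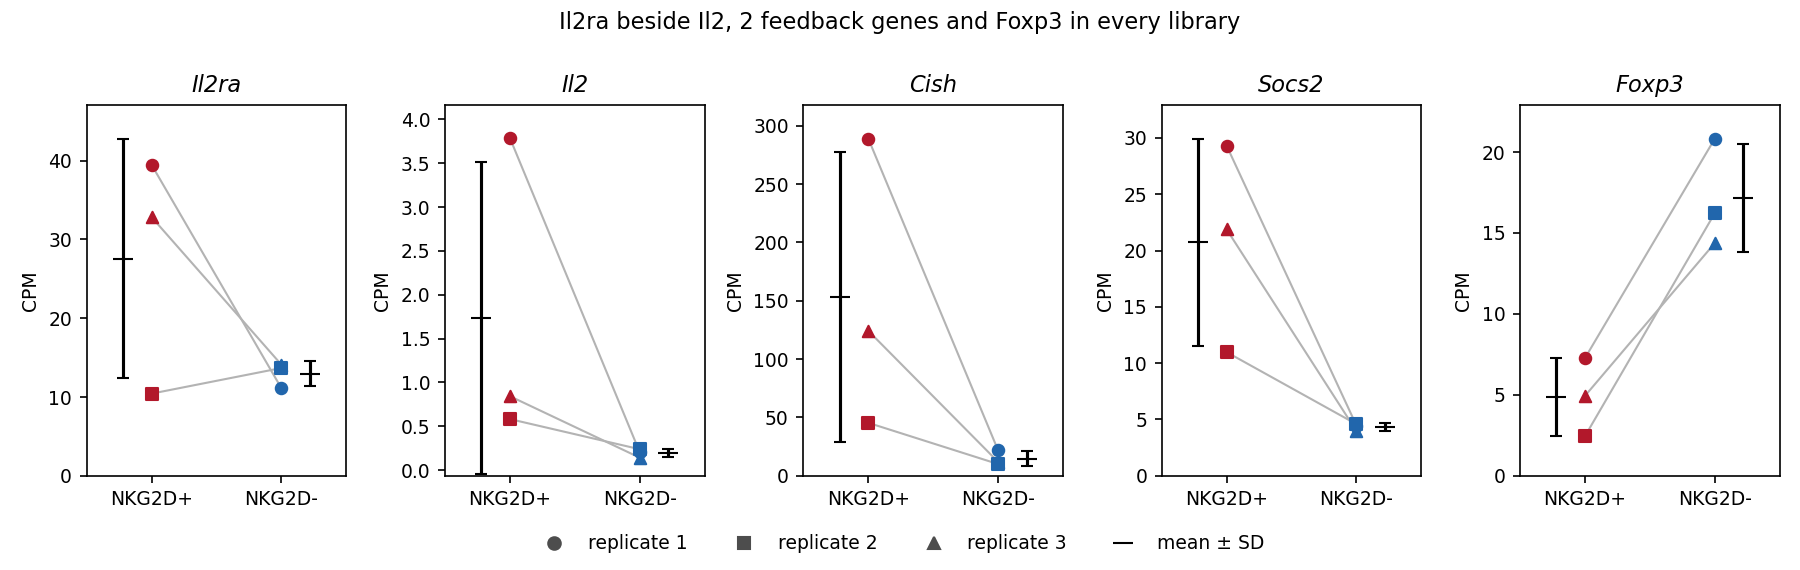
CPM of Il2ra, Il2, Cish, Socs2 and Foxp3 in every library on linear axes, NKG2D+ left of NKG2D-, with grey lines joining libraries of the same replicate number and black bars for mean ± SD of 3 libraries. In NKG2D+ cells all 5 genes are highest in replicate 1 and lowest in replicate 2, and the NKG2D+ points lie above the NKG2D- points for Il2, Cish and Socs2 and below them for Foxp3.

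Among 10 transcription factors known to act on genes of the family 0 passed by edgeR, against 2.02% of tested genes. An unadjusted p under 0.05 was reached by 2 of the 10, against 21.1% of tested genes. Their median log2 fold change was -0.12. DESeq2 called 1 of the 10 as lower, against 415 of 23284 genes, and limma-voom called 0, against 83 of 12951 genes. Foxp1, a repressor of Il7r, had the smallest p, at 167, 188 and 179 CPM in NKG2D+ and 234, 212 and 217 CPM in NKG2D- libraries 1, 2 and 3 (log2 fold change -0.31, SE 0.07, adjusted p = 0.0841). It was the call made by DESeq2 (adjusted p = 0.0108), and edgeR called it without NKG2D+ library 2 (adjusted p = 0.0426).

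The genes whose profile over the 6 libraries was most like that of Il4ra were C530008M17Rik, Mettl8 and Iqcd. They were ranked by the root mean square difference of log2(CPM + 0.5) after subtracting each gene's mean, which was 0.034, 0.035 and 0.05. C530008M17Rik and Iqcd lay at 0.198 to 1.15 CPM, where the added 0.5 shrinks differences, and their fitted log2 fold changes were -0.87 and -1.06, against -0.57 for Il4ra. Of the 3 genes Mettl8 was called, at 12.03, 13.8 and 12.8 CPM in NKG2D+ and 19.2, 19.3 and 20.3 CPM in NKG2D- libraries 1, 2 and 3. Mettl8 fell by 0.61 on the log2 scale (adjusted p = 0.0339).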

How the data were processed

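The deposited values are raw counts of reads under each gene symbol, with 1 table for each library. Per the submitters' processing notes, CASAVA 1.8.2, TopHat2 2.0.4 and build mm9 were used. Not given in the sources used here: how reads were assigned to genes and whether strand was used. RNA came from column extraction with DNase and TruSeq v2 libraries, per the labels' protocols. Reads that name no gene (14.0% to 15.9% outside genes, 0.715% to 0.836% ambiguous, 19.7% to 26.2% aligned to several places) were left out, which can lower genes with near copies. The share aligned to several places was 19.7% to 21.0% in NKG2D+ and 21.6% to 26.2% in NKG2D- libraries, so it differed between the populations.

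Counts were tested in R 4.3.3 with edgeR 4.0.16 (TMM, robust quasi-likelihood fit in legacy mode, population as the only term, filterByExpr with a minimum count of 10 and a total of 15), with Benjamini-Hochberg adjustment over all 12951 genes and a threshold of 0.05. Standard errors are the log2 fold change over the square root of F. CPM uses TMM-scaled library sizes. DESeq2 1.42.0, limma-voom (limma 3.58.1), other scalings and left-out libraries were alternatives. Within-library ratios had exact permutation tests.

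The members, lists and rules were chosen with earlier results of these data known. All members are named. Pathway lists give up to 4 called genes, or else the smallest p, and profiles most like a called member are given. The lists cover ligands, signalling, targets, transcription factors and cell markers. The series describes 3 mice, and same-numbered libraries deviated together (r = 0.25, 0.20 and 0.38 across 12951 genes, which are not independent), so the numbers were taken as pairs. Within a population no library was a copy of another, with chi-square over its degrees of freedom at 41.8 to 256 for the 6 pairs. In simulated counts over 12853 genes, 44% of 50 genes set to 1.5-fold were called, and 70% of 50 set to 2-fold. Of 162 calls, 9 fell on genes that had not been changed. The simulation gave each gene the typical spread at its level, with no mouse effect and no outlying library. Its shares therefore need not hold for members with a larger spread, such as Il2ra and Il9r.

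Summed levels of the other marker lists were 3057 to 4709 CPM in NKG2D+ and 3203 to 3440 CPM in NKG2D- libraries for 5 T-cell genes, 43.3 to 88.3 against 62.5 to 72.5 CPM for 4 CD4 and regulatory T-cell genes, 3.35 to 6.20 against 2.06 to 3.46 CPM for 4 NK-cell and ILC genes, 9.95 to 16.7 against 1.41 to 8.03 CPM for 3 gamma-delta and NKT genes (2 more listed symbols did not match) and 53.4 to 59.4 against 69.5 to 71.8 CPM for 7 stromal and endothelial genes, of which Col1a1 was called higher and Pecam1 lower by edgeR. Pecam1 was most of the stromal and endothelial sum, at 47.7 to 51.0 CPM in NKG2D+ and 67.4 to 68.8 CPM in NKG2D- libraries. Col1a2, like Col1a1, had a positive log2 fold change (1.14, adjusted p = 0.224 by edgeR). Blk counts as a B-cell and as a gamma-delta gene. It was nearly all of the gamma-delta and NKT sum, at 9.44 to 16.5 CPM in NKG2D+ and 1.385 to 7.73 CPM in NKG2D- libraries.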

Additional observations from a re-analysis of the deposited data

How the results depend on the processing

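Il4ra was the 1 member called with RLE scaling, without the filter on low counts, with limma-voom and with the bias-adjusted quasi-likelihood fit. DESeq2 called 2 members, Il4ra and Il9r (log2 fold change of Il9r 1.98), and the replicate block 0, with -0.571 for Il4ra. Leaving out 1 library gave 0 to 3 members, and leaving out both libraries of mouse 1, 2 or 3 gave 1 (Il4ra), 1 (Il2ra) and 0. Over all genes 261 calls became 1443 with DESeq2, 83 with limma-voom, 68 with the replicate block (57 of them among the 261), 8 to 1312 without single libraries (543, 1312 and 15 without NKG2D+ libraries 1, 2 and 3, and 21, 13 and 8 without NKG2D- libraries 1, 2 and 3) and 0 without both libraries of mouse 3, where 971 genes had an unadjusted p under 0.05. Fewer samples remain in the fits that leave out libraries, while DESeq2, limma-voom and the block used all 6.

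The log2 fold change of Il4ra was -0.609 to -0.512 without single libraries, -0.594 without mouse 2 and -0.586 without mouse 3, where its adjusted p was 0.0524 and 0.555. Il2ra ran from 0.737 to 1.48 without single libraries and stood at 0.637 without mouse 1 (adjusted p = 0.686) and 1.53 without mouse 2. Il9r ran from 1.03 to 2.33 without single libraries, and stood at 0.853 without mouse 1 and 2.53 without mouse 2 (adjusted p = 0.115 and 0.0784). Il2rb, at -0.002, turned positive with RLE (0.00307), DESeq2 (5.84e-05), limma-voom (0.00645), the block (0.0138) and without mouse 1 (0.151), and ran from -0.108 to 0.149 without single libraries. The log2 ratio of Il2rb to Il2rg, -0.03, ran from -0.114 to 0.125 and was 0.15 without mouse 1. The cause was not tested. The block changed no other member's call. Depth limits Il15, at 4 to 78 counts a library.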
